A study of Auricularia auricula-judae with 2 samples.

Results

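Plant cell wall breakdown enzymes were examined in Auricularia auricula-judae, the edible wood ear, at the stage of the fruit body. They were chosen by their descriptions in the authors' transcript table: every assembled gene with a transcript described as a cellulase, endoglucanase, exoglucanase, cellobiohydrolase, beta-glucosidase, xylanase, xylosidase, arabinofuranosidase, mannan hydrolase, pectin enzyme, feruloyl or acetylxylan esterase, or an enzyme of cellobiose. The description search found 320 transcripts of 147 assembled genes, out of 43428 genes in all, and the transcripts of a gene were added up. The search itself used no expression value, but the members were chosen with earlier results of these data known. Each gene is named here by the symbol of its closest Swiss-Prot match, with the identifier of its most-read matching transcript, so the name gives the nearest described relative only.

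The study compared fruit bodies of 2 kinds. Control fruit bodies came from untreated mycelium, and irradiated ones from mycelium given 200 Gy of gamma rays on agar. Both kinds spent 14 days on agar at 25 °C and 30 days on a sawdust and rice bran mix at 25 °C, and then fruited at 18 °C and 90% humidity. The RNA came from fruit bodies formed after the exposure and 1 library was made per group. The labels name neither the strain nor the number of fruit bodies in a library. A difference between the libraries therefore has no replicate check, and in bulk tissue fewer cells that express a gene cannot be told apart from less RNA per cell.

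Wood consists of cellulose fibres in a matrix of hemicelluloses (xylan, mannan and xyloglucan), pectin and lignin. Fungi that grow on wood secrete sets of enzymes against each polymer: endoglucanases and lytic polysaccharide monooxygenases open cellulose chains, cellobiohydrolases release the disaccharide cellobiose from chain ends, and beta-glucosidases split cellobiose to glucose. Xylanases, mannanases and pectinases cut the other backbones, while arabinofuranosidases and esterases strip their side groups. Much of this secretion is known from mycelium that feeds in the substrate. Fruit bodies draw on that mycelium, and glucan-cutting relatives of these enzymes also remodel the fungus's own wall.

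Levels are given in FPKM, fragments per kilobase of transcript scaled to library size. Ratios are log2 of irradiated over control after adding 1 FPKM, and 2-fold refers to that scale. A gene called the most abundant has the highest mean FPKM of both libraries. Depth is given as scaled reads, the sum of a pair of values in the authors' own comparison of control with 200 Gy, for which the headers name neither unit nor sample. These values added up to 8872431 (first of the pair) and 8404057 (second) over the whole table. A gene counts as measured from 100 scaled reads, which 8249 of the 43428 genes reached. Fruit body markers were present in both libraries: the most abundant gene described as fruiting body protein SC7 (TBIU011590) had 137 FPKM in the control against 256 FPKM after irradiation. The SC3 gene (TBIU005515) had 39.7 and 32.7 FPKM, and a second SC7 gene (TBIU010424) had 8.99 and 11.0 FPKM. Of the plant marker descriptions, which stand for the sawdust and bran, 2 genes matched and neither exceeded 2.9 scaled reads, and they summed to 0 and 12.3 FPKM. Bacterial marker descriptions matched 60 genes. Of these, 56 had under 20 scaled reads, and the measured 4 are ribosomal proteins whose descriptions can also name mitochondrial ones; the list summed to 326 and 508 FPKM, and its part in the results was not tested.

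Cell wall enzymes were expressed at modest levels, and for most of them the libraries were within 2-fold of each other. Of the 147 genes, 67 were measured and held 97.8% of the group's scaled reads. The other 80 comprised 22 genes with 20 to 100 scaled reads and 58 below that. All members together made up 0.222% of the FPKM of the control library and 0.239% of that of the irradiated one. The median mean level of the measured members was 15.0 FPKM, against 36.9 FPKM over all measured genes.

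Of the 67 measured members, 8 (11.9%) stood at least 2-fold above the control and 5 (7.46%) at least 2-fold below it. Over all 8249 measured genes the same shares were 9.32% above and 8.68% below, so both counts lie near the background. The median log2 ratio of the members was 0.23, with quartiles at -0.31 and 0.58. Over all measured genes the median was 0.10, with quartiles at -0.37 and 0.56. A ratio above 0 was found for 58.2% of the measured members and 55.9% of all measured genes. With the overall shift of 0.10 removed, the counts over all genes became 598 above (7.25%) and 853 below (10.3%), while the members still gave 8 and 5. On the authors' scaled values the members gave 8 and 5 as well, beside 8.56% and 10.4% of all measured genes. The medians there were 0.048 for the members and 0.035 for all measured genes. In the authors' deposited table every transcript had the highest possible q-value. With 1 library per group the p-values there rest on no replicates, so members passing a threshold are not counted here.

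The genes furthest above the control were spread over several enzyme classes, as were those below. The higher 8 were cellobionic acid phosphorylase XCC4077, mannanase manC, the glucan endo-1,6-beta-glucosidase exgB, the alpha/beta-glucosidase agdC, pectate lyase plyC, endoglucanase celC, a feruloyl esterase faeA and an arabinofuranosidase. The lower 5 were mannanase manF, acetylxylan esterase axeA, an eglD gene, xylanase xynC and beta-glucosidase bglX. A 95% counting interval belongs to the ratio of the authors' scaled values and covers counting error only; the FPKM ratio need not lie within it. The interval lay wholly beyond 2-fold for 6 of the higher genes and for 3 of the lower ones. It reached inside 2-fold for this faeA gene, the arabinofuranosidase, xynC and bglX. The share of all measured genes with an interval wholly beyond 2-fold was not computed. These interval counts therefore do not show how the members compare with other genes.

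**Figure D1:**
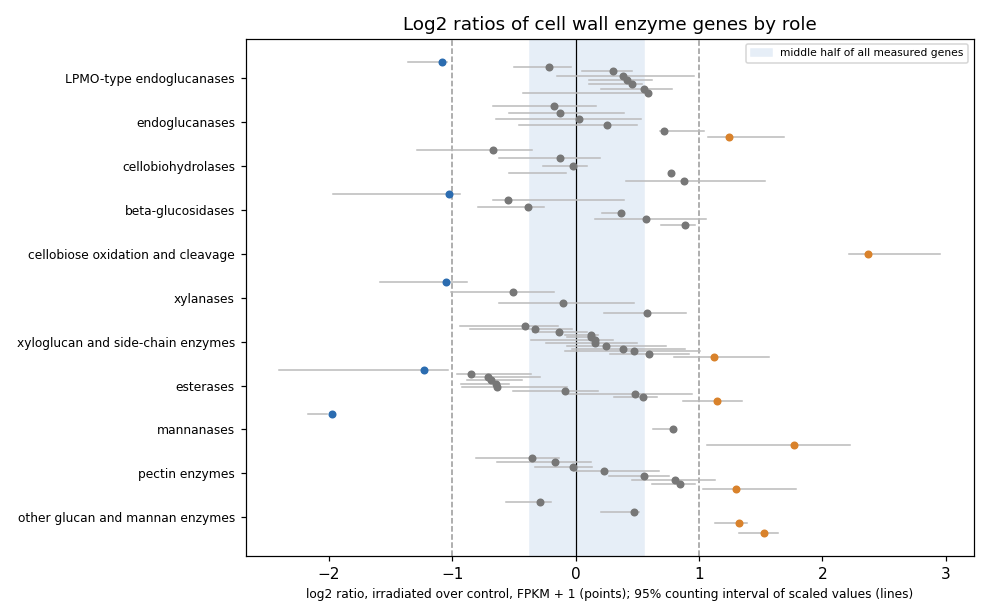
Log2 ratio of irradiated over control for the 67 measured cell wall enzyme genes, 1 row of points per role group; grey lines are 95% counting intervals of the scaled values, dashed lines mark 2-fold, and the shaded band is the interquartile range of all 8249 measured genes (-0.37 to 0.56). Of the points, 8 lie beyond 2-fold on the right (orange) and 5 on the left (blue), and most groups have points on both sides of 0.

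The cellulose group with the highest summed level was that of proteins described as endo-beta-1,4-glucanase D (eglD) or as endoglucanase-7 (cel61b). These names were given before the family was recognised as lytic polysaccharide monooxygenases, copper enzymes that break cellulose by oxidation. Of 14 such genes 8 were measured, with 0 above and 1 below the control by 2-fold, and their median log2 ratio was 0.40. The gene below was eglD (TBIU015353), at 74.8 FPKM in the control against 34.7 FPKM after irradiation (log2 ratio -1.09, counting interval -1.36 to -1.04). An eglD gene (TBIU005222) had 77.1 and 95.25 FPKM (log2 ratio 0.30). Another (TBIU011644) had 58.1 and 80.0 FPKM, a log2 ratio of 0.46. Only 40.9% of its reads came from transcripts described as eglD, whose ratio was -0.24, and its most-read transcript, described as the cellulose-growth-specific protein cel1, had 0.82. The eglD gene TBIU006178 had 40.1 and 59.3 FPKM. As sums these genes were within 2-fold and slightly higher in the irradiated library, which for TBIU011644 turns when its eglD transcripts are taken alone. Less abundant were eglD TBIU001517 at 21.4 and 28.9 FPKM and eglD TBIU011412 at 7.32 and 11.5 FPKM. The eglD gene TBIU019685 had 4.36 and 5.98 FPKM. The counting intervals of TBIU011412 and TBIU019685 covered 0. The cel61b gene (TBIU023942), a name from the cellulose-degrading mould Trichoderma, had 12.9 and 11.0 FPKM (log2 ratio -0.22).

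Hydrolytic endoglucanases, which cut inside cellulose chains, had 6 measured genes of 10, with 1 above the control by 2-fold and 0 below. That gene was celC (TBIU012976), at 11.9 and 29.4 FPKM (log2 ratio 1.24, counting interval 1.08 to 1.69). The celA gene (TBIU026050) had 11.2 and 19.0 FPKM (log2 ratio 0.72). Both were higher in the irradiated library, celA by less than 2-fold. The remaining endoglucanases were close to equal. The egl5 gene (TBIU003298) had 29.2 and 25.7 FPKM, the highest level of the group in the control. The eglB gene (TBIU006751) had 11.7 and 10.6 FPKM. The EG V gene (TBIU057649) had 5.83 and 7.13 FPKM, and an endoglucanase matched to GUN_PAEPO (TBIU002733) had 5.34 and 5.47 FPKM. The counting intervals of these last 4 genes covered 0.

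Cellobiohydrolases work from chain ends and are often the most secreted cellulases of wood fungi. Of 8 genes 5 were measured, none of them beyond 2-fold with 1 FPKM added, with a median log2 ratio of -0.02. These counts leave out a transcript described as cellobiohydrolase cbhB (TBIU022986), which was counted with the xylanases as part of xynC TBIU022988. That transcript stood at 6.92 FPKM in the control against 1.59 FPKM after irradiation, a log2 ratio of -1.61 (counting interval -2.92 to -1.54). Among the 5 measured genes, cel2 TBIU025576 ranked first by mean level, at 29.4 and 29.0 FPKM. A cel2 gene (TBIU002128) had 18.6 and 16.9 FPKM, and cel3 (TBIU007771) had 11.0 and 6.56 FPKM (log2 ratio -0.67). Both were lower in the irradiated library by less than 2-fold, and the counting interval of TBIU002128 covered 0. A low-level cel2 gene (TBIU025579), which shares an assembly cluster with TBIU025576, had 3.95 and 8.08 FPKM (log2 ratio 0.88, and 1.01, past 2-fold, with 0.1 FPKM added). For cel2 TBIU025580, at 10.8 and 19.2 FPKM, the FPKM ratio of 0.77 and the counting interval of -0.54 to -0.08 have unlike signs. Its long transcript had a log2 ratio of -0.24, and a short fragment described as CBH-1 (TBIU025581), with an estimated effective length of 68 bases, had 3.48.

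Beta-glucosidases, which finish cellulose breakdown by splitting cellobiose, had 6 measured genes of 18, with 0 above and 1 below the control by 2-fold. The most abundant was bglI (TBIU018823), at 94.1 and 121 FPKM (log2 ratio 0.36). The bglL gene TBIU016490 had 32.9 and 61.6 FPKM (log2 ratio 0.89, counting interval 0.69 to 0.97), just under 2-fold. Both of the leading beta-glucosidase genes were therefore higher in the irradiated library. Other members were lower: bglL TBIU020443 had 11.9 and 8.90 FPKM, a second gene of the same symbol in the opposite direction. The bglX gene (TBIU023650) had 10.6 and 4.68 FPKM (log2 ratio -1.03). The BoGH3B-like gene (BACOVA_02659, TBIU058068) had 18.1 and 12.1 FPKM, with 32.1% of its reads in transcripts that carry the description and a counting interval that covered 0. BGL1B (TBIU014659), named after an intracellular enzyme of the white-rot fungus Phanerochaete, had 4.12 and 6.62 FPKM.

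An oxidised form of cellobiose, cellobionic acid, is made when cellobiose dehydrogenase or monooxygenases act on cellulose. The gene matched to cellobionic acid phosphorylase (XCC4077, TBIU008171), which splits that acid with phosphate and is known from bacteria and some fungi, had 3.85 FPKM in the control against 24.03 FPKM after irradiation. Its log2 ratio was 2.37 (counting interval 2.21 to 2.96), the highest of the 67 measured members. The gene rested on 501 scaled reads and a single transcript. Genes described as cellobiose dehydrogenase, the enzyme that makes the acid's lactone, were barely detected: CDH-1 TBIU045568 was listed at 0 in the control and had 12.2 FPKM after irradiation, on 5.8 scaled reads, and CDH-1 TBIU049284 had 1.20 and 1.17 FPKM on 4.0 scaled reads. With so few reads no level can be set against that of XCC4077.

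**Figure D2:**
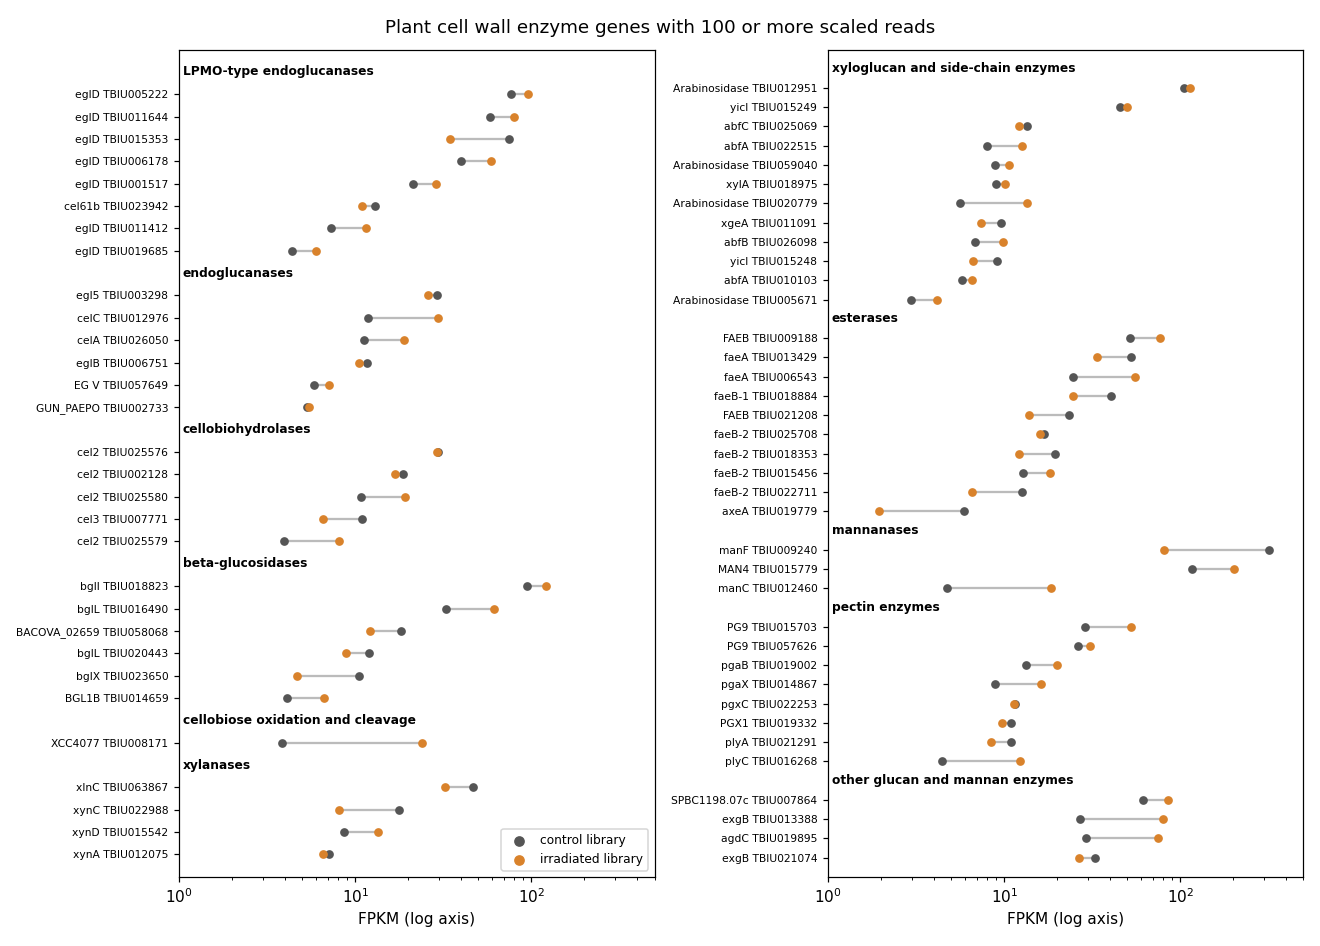
FPKM of each of the 67 measured cell wall enzyme genes in the control (grey) and irradiated (orange) library on a log axis, ordered by mean level within role groups; each point is 1 library and the line joins the pair of values of a gene. The widest gaps are those of XCC4077 (3.85 to 24.03 FPKM), manF (319 to 80.6 FPKM) and manC (4.72 to 18.5 FPKM), while most pairs lie close together.

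Xylanases cut the backbone of xylan, the main hemicellulose of hardwood and bran. Of 9 genes 4 were measured, with 0 above and 1 below the control by 2-fold. A ratio below 0 was found for 3 of the 4, where 55.9% of all measured genes had one above 0. The most abundant, xlnC (TBIU063867), had 46.8 and 32.5 FPKM (log2 ratio -0.51). The xynC gene TBIU022988 had 17.7 and 8.06 FPKM (log2 ratio -1.05, counting interval -1.58 to -0.88). Its transcripts carry unlike descriptions: the xylanase transcript had a log2 ratio of -0.42, and one described as cellobiohydrolase cbhB (TBIU022986) had -1.61. The xynA gene (TBIU012075) had 7.11 and 6.56 FPKM, with a counting interval that covered 0. Against these, xynD (TBIU015542) had 8.65 and 13.4 FPKM (log2 ratio 0.58). Among xylanases with 20 to 100 scaled reads, xynC TBIU007437 had 7.87 and 3.63 FPKM on 98.8 scaled reads. The xynB gene TBIU014501 had 4.83 and 0.65 FPKM, and XynA TBIU051929 had 11.6 and 5.85 FPKM. All 3 of these low-read genes were also lower in the irradiated library, and the counting interval of XynA covered 0.

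Enzymes of xyloglucan and of arabinose and xylose side chains mostly differed little between the libraries. Of 17 genes 12 were measured, 1 of them 2-fold above the control and 0 below, with a median log2 ratio of 0.16. The abundant exo-alpha-(1->5)-L-arabinofuranosidase gene (Arabinosidase, TBIU012951), which trims arabinan, had 104 and 114 FPKM. The alpha-xylosidase yicI (TBIU015249), an enzyme that removes xylose from xyloglucan pieces, had 45.7 and 49.8 FPKM. Counting intervals of both covered 0, so no difference between the libraries was resolved for these leading genes. The gene beyond 2-fold was a less abundant Arabinosidase gene (TBIU020779), at 5.64 and 13.4 FPKM (log2 ratio 1.12, counting interval 0.80 to 1.57).

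The other side-chain genes were below 14 FPKM in each library. Arabinosidase TBIU059040 had 8.84 and 10.7 FPKM, and Arabinosidase TBIU005671 had 2.94 and 4.15 FPKM. All 4 measured genes of this symbol had ratios above 0, from 0.12 to 1.12, where 55.9% of all measured genes did. The counting intervals of all but TBIU020779 covered 0. Of the arabinofuranosidases that act on xylan branches, abfA TBIU022515 had 7.98 and 12.6 FPKM. The second abfA gene (TBIU010103) had 5.79 and 6.58 FPKM. The abfC gene (TBIU025069) had 13.4 and 12.1 FPKM, and abfB (TBIU026098) had 6.81 and 9.86 FPKM. These 4 were within 2-fold, and the intervals of abfC, abfB and abfA TBIU010103 covered 0. The beta-xylosidase xylA (TBIU018975), which splits xylobiose, had 8.97 and 10.1 FPKM. The second yicI gene (TBIU015248), in the assembly cluster of the first, had 9.16 and 6.65 FPKM. Xyloglucanase xgeA (TBIU011091) had 9.58 and 7.40 FPKM. The counting intervals of yicI TBIU015248 and xgeA lay below 0, and that of xylA covered it.

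Esterases free hemicellulose from its acetyl and ferulic acid groups, ferulic acid being the link between xylan and lignin in bran. Of 21 genes 10 were measured, and 3 of the 10 had ratios above 0, where 55.9% of all measured genes did. Their median log2 ratio was -0.64. That median was -0.74 after centring and -0.52 on the authors' scaled values. Counts beyond 2-fold were 1 above and 1 below. The acetylxylan esterase axeA (TBIU019779) was the gene below, at 5.95 and 1.96 FPKM on 105.8 scaled reads (log2 ratio -1.23, counting interval -2.41 to -1.03). The gene above was a feruloyl esterase, faeA TBIU006543, at 24.4 and 55.2 FPKM (log2 ratio 1.14, counting interval 0.87 to 1.34). Another faeA gene (TBIU013429) went the other way, at 52.8 and 33.4 FPKM (log2 ratio -0.64, counting interval -0.93 to -0.54). The 2 genes with the faeA symbol thus exchanged rank between the libraries, and their summed level was 77.2 FPKM in the control against 88.6 FPKM after irradiation.

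Type B feruloyl esterases were divided, with more genes lower than higher in the irradiated library. The faeB-1 gene TBIU018884 had 40.4 and 24.7 FPKM (log2 ratio -0.69). The faeB-2 gene TBIU022711 had 12.7 and 6.60 FPKM, and faeB-2 TBIU018353 had 19.4 and 12.2 FPKM. All 3 had counting intervals below 0. The faeB-2 gene TBIU025708 had 16.9 and 15.9 FPKM, with an interval that covered 0. Against this direction, FAEB TBIU009188, the most abundant esterase by mean level, had 51.9 and 76.3 FPKM (log2 ratio 0.55), and faeB-2 TBIU015456 had 12.8 and 18.2 FPKM, the latter with an interval that covered 0. The gene entered as FAEB TBIU021208, at 23.2 and 13.8 FPKM, is an esterase in name only: transcripts with that description held 2.63% of its reads, and its main transcript is described as an uncharacterised oxidoreductase.

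Mannanases, which cut the mannan backbone of wood hemicellulose, had the highest levels and the widest spread of ratios. Of 5 genes 3 were measured, 1 above and 1 below the control by 2-fold. The manF gene (TBIU009240) had 319 FPKM in the control, the highest level of any member there, and 80.6 FPKM after irradiation. Its log2 ratio was -1.97 (counting interval -2.17 to -2.01, 8844 scaled reads). The MAN4 gene (TBIU015779) had 116 and 201 FPKM (log2 ratio 0.79, counting interval 0.63 to 0.81). The most abundant mannanase was therefore manF in the control and MAN4 in the irradiated library. A low-level gene, manC (TBIU012460), had 4.72 and 18.5 FPKM (log2 ratio 1.77, counting interval 1.06 to 2.22), and 0.83 for its most-read transcript alone.

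Pectin enzymes act on the polymer that glues plant cells together. Of 18 genes 8 were measured, with 1 above and 0 below the control by 2-fold and a median log2 ratio of 0.39. The gene above was plyC (TBIU016268), a pectate lyase, which cuts the chain by elimination, at 4.41 and 12.3 FPKM (log2 ratio 1.30, counting interval 1.03 to 1.78). The other pectate lyase, plyA (TBIU021291), had 11.0 and 8.40 FPKM (log2 ratio -0.35). Of the polygalacturonases, which cut by hydrolysis, PG9 TBIU015703 was the most abundant, at 28.6 and 52.2 FPKM (log2 ratio 0.84). The endopolygalacturonase pgaB (TBIU019002) had 13.2 and 19.8 FPKM, and the exopolygalacturonase pgaX (TBIU014867) had 8.83 and 16.1 FPKM. These 3 polygalacturonases were higher in the irradiated library by less than 2-fold, with counting intervals above 0. The pgxC gene (TBIU022253) had 11.6 and 11.4 FPKM, and PGX1 (TBIU019332) had 11.0 and 9.67 FPKM. The second PG9 gene (TBIU057626), in the assembly cluster of the first, had 26.1 and 30.8 FPKM, with 30.8% of its reads in the described transcript. Counting intervals of these last 3 genes covered 0.

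The description search also took in 24 genes whose enzymes may act on the fungus's own glucans and mannans or on storage glucans, of which 4 were measured. Among them, 2 stood above the control by 2-fold and 0 below. The exgB gene TBIU013388, described as a glucan endo-1,6-beta-glucosidase, which cuts a glucan of fungal walls, had 27.1 and 79.8 FPKM (log2 ratio 1.52, counting interval 1.33 to 1.64). The second exgB gene (TBIU021074) had 32.8 and 26.7 FPKM (log2 ratio -0.29). Of these 2 genes of similar control level, 1 was thus beyond 2-fold higher after irradiation and the other slightly lower. The alpha/beta-glucosidase agdC (TBIU019895) had 29.2 and 74.5 FPKM (log2 ratio 1.32, counting interval 1.13 to 1.39). The mannan endo-1,6-alpha-mannosidase SPBC1198.07c (TBIU007864), matched to a fission yeast protein, had 61.4 and 85.6 FPKM (log2 ratio 0.47). A further 12 genes described as glucan endo-1,3-beta-glucosidases stayed in the group because of how their descriptions are worded, and none of them was measured. Without all 24 genes, 6 of the measured members were above and 5 below the control by 2-fold.

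Summed over all genes of a group, mannanases had 440 FPKM in the control against 306 FPKM after irradiation. They held 20.4% of the members' FPKM in the control, the highest share of the 11 groups, and 13.04% in the irradiated library. Without manF their sum was higher in the irradiated library, with a log2 ratio of 0.90 in place of -0.52, and the median ratio of the 3 measured mannanases, 0.79, is opposite in sign to their sum. Xylanases went from 110 to 77.5 FPKM. Hydrolytic endoglucanases had 83.2 and 129 FPKM, pectin enzymes 146 and 196 FPKM, and the other glucan and mannan enzymes 196 and 332 FPKM. These 3 sums were higher in the irradiated library by a log2 ratio of 0.62, 0.42 and 0.76, and their sign held after centring and on the authors' scaled values.

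The cellobiose enzymes, the smallest sum, had 5.05 and 37.4 FPKM (log2 ratio 2.67), mostly from XCC4077 and, after irradiation, the fragment CDH-1 TBIU045568. The other sums differed by a log2 ratio of at most 0.24 in size. Beta-glucosidases had 249 and 295 FPKM, side-chain enzymes 244 and 263 FPKM, and esterases 293 and 282 FPKM. The monooxygenase-type genes had 308 and 343 FPKM and the cellobiohydrolases 80.9 and 88.0 FPKM, and the sign of both ratios turned on the authors' scaled values (-0.20 and -0.16). The cellobiohydrolase sum includes the short CBH-1 fragment TBIU025581, listed at 0 in the control and 10.15 FPKM after irradiation on 5.8 scaled reads. All 147 members together had 2155 FPKM in the control against 2348 FPKM after irradiation. This log2 ratio of 0.12 became -0.046 on the scaled values, so the direction of the total depends on the unit.

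**Figure D3:**
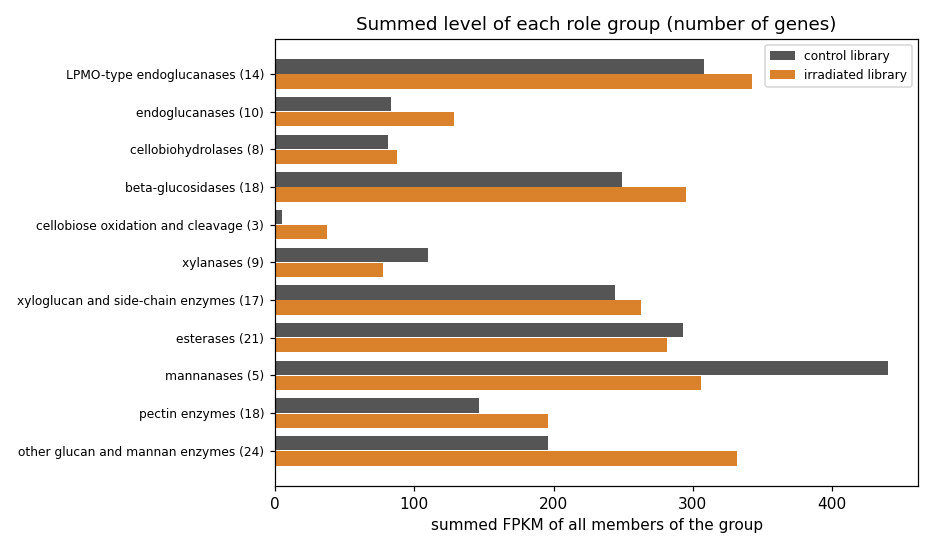
Summed FPKM of each role group in the control (grey) and irradiated (orange) library, with the number of genes in brackets; bars start at 0 and have no error bars because each group had 1 library. Mannanases are the tallest group in the control at 440 FPKM and stand at 306 FPKM in the irradiated library, and the cellobiose enzymes are the shortest at 5.05 and 37.4 FPKM.

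Several members were assembled as many transcripts, and these did not always move together. Of the measured members 34.3% had a single transcript, against 49.6% of all measured genes. Of 39 measured members with several transcripts of 20 or more scaled reads, 24 (61.5%) had transcripts on both sides of 0, against 55% of 3849 measured genes. A gene with a consistent pattern was manF: all 9 of its transcripts were lower in the irradiated library. Its most-read transcript (TBIU009240) had 71.9 and 25.9 FPKM, and TBIU009245 had 35.8 and 6.79 FPKM. The manF transcripts TBIU009241 and TBIU009244 had 15.0 and 12.6 FPKM in the control and were listed at 0 in the irradiated library.

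Other genes were divided. In the eglD gene TBIU015353, the most-read transcript had 47.3 and 12.5 FPKM, and the other (TBIU015352) had 27.4 and 22.2 FPKM. In the agdC gene, TBIU019895 had 15.9 and 59.1 FPKM, whereas TBIU019894 had 13.3 and 15.4 FPKM. Each of these genes thus owed its gap between the libraries mainly to 1 transcript. The abfA gene TBIU022515, within 2-fold as a sum, held a transcript (TBIU022519) at 3.32 FPKM in the control and 0 in the irradiated library, and another (TBIU022510) at 0 and 2.44 FPKM. Over the measured members with several transcripts, 21 of 145 transcripts with 20 or more scaled reads (14.5%) were listed at 0 in 1 library, against 10.2% of 12398 such transcripts over all measured genes.

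Among the other cellulose enzymes with several transcripts of 20 or more scaled reads, bglL TBIU016490 had log2 ratios from 0.69 to 2.98, the last from a transcript (TBIU016488) at 0 and 6.89 FPKM. The celC gene had -0.16 to 2.05, with the transcripts described as celC all above 0. The celA gene had -0.64 to 1.07, and its most-read transcript, at 3.37 and 8.19 FPKM, was beyond 2-fold. In EG V the most-read transcript was at 3.62 FPKM in the control and 0 after irradiation, while TBIU057652 had 1.43 and 3.56 FPKM. The eglB gene had -0.85 to 1.21, and cel61b had -1.69 to 1.29 over 7 transcripts. These 4 genes with ratios on both sides, celA, EG V, eglB and cel61b, were within 2-fold as sums. The bglX gene, whose sum was beyond 2-fold, had -1.72 to -0.11, with TBIU023654 at 2.30 FPKM and TBIU023653 at 1.63 FPKM in the control and both at 0 after irradiation. In eglD TBIU011644 the range was -1.14 to 1.07. It was 0.20 to 0.33 in eglD TBIU005222, -0.70 to 0.04 in bglL TBIU020443 and 0.48 to 0.52 in BGL1B TBIU014659. It was -0.27 to 0.17 in cel2 TBIU025576 and -0.43 to -0.05 in the BoGH3B-like gene TBIU058068.

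Among hemicellulose enzymes, faeA TBIU013429 was the most divided, with 17 such transcripts from -2.02 to 2.06. Its most-read transcripts, TBIU013429 at 8.63 and 5.78 FPKM and TBIU013435 at 8.89 and 4.59 FPKM, were both lower after irradiation. In abfA TBIU010103 the most-read transcript had 1.99 and 6.21 FPKM, and TBIU010101 had 2.92 and 0 FPKM. Arabinosidase TBIU020779 owed its gap mainly to the most-read transcript, at 1.92 and 8.59 FPKM, beside TBIU020780 at 3.72 and 4.84 FPKM. Arabinosidase TBIU005671 had 0.81 for its most-read transcript, while TBIU005670 was listed at 0 after irradiation. Arabinosidase TBIU059040 ranged from -0.16 to 1.02. The range was -0.91 to 0.69 in abfC, -0.11 to 0.86 in xylA, -0.46 to 0.23 in xgeA and -0.94 to 0.46 in xynA. In the esterases it was -0.63 to -0.31 in faeB-1 TBIU018884, -1.05 to 0.09 in faeB-2 TBIU018353 and -0.67 to 0.16 in faeB-2 TBIU022711. MAN4 was even, with 0.78 and 0.77 for its transcripts, and manC had 0.83 to 1.74. Of the pectin enzymes, plyC had 0.45 to 1.33 and plyA -0.75 to 0.08. Those of pgxC ran from -1.04 to 0.48, PGX1 from -0.45 to 0.09 and pme1 from 0.04 to 0.41. In PG9 TBIU057626 the described transcript had 2.09 and 5.41 FPKM, and the most-read one (TBIU057627), which has no description, had 22.3 and 24.2 FPKM. The exgB gene TBIU021074 had -1.01 to 0.56, and SPBC1198.07c had 0.09 and 0.90. Ranges that include a transcript at 0 in 1 library depend on the added 1 FPKM.

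**Figure D4:**
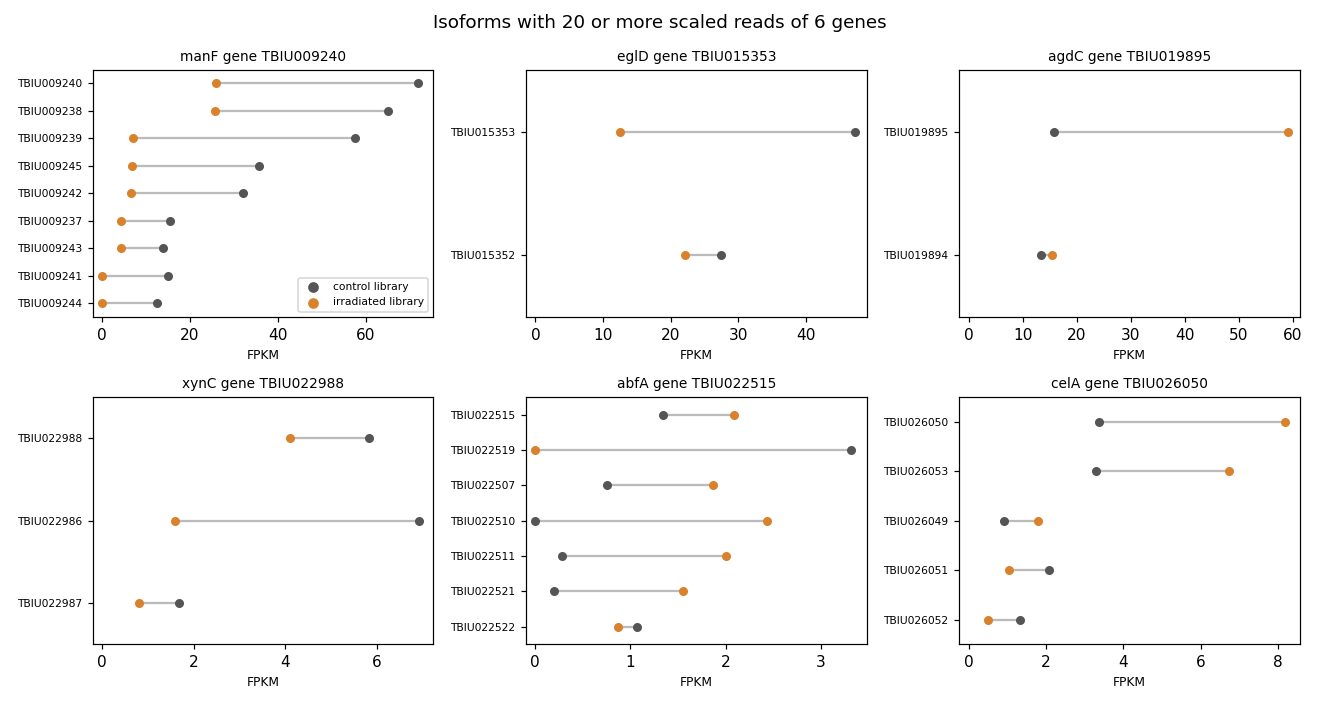
FPKM of the transcripts with 20 or more scaled reads of 6 member genes in the control (grey) and irradiated (orange) library, 1 panel per gene with its own linear axis, chosen after the values were seen. All 9 manF transcripts are lower in the irradiated library, from 71.9 to 25.9 FPKM for the most-read one, while abfA and celA have transcripts on both sides.

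Members with 20 to 100 scaled reads numbered 22, of which 3 were above and 4 below the control by 2-fold, with a median log2 ratio of -0.04. Together with the measured members this made 11 of 89 above and 9 below, where 11.3% and 11.7% of all genes with 20 or more scaled reads lay. Besides the xylanases given above, the cellulose enzymes among them were eglD TBIU017165 at 5.50 and 7.68 FPKM, eg 1 TBIU012368 at 3.28 and 8.29 FPKM, and egl5 TBIU052903 at 4.92 and 1.36 FPKM. Of the beta-glucosidases, bglL TBIU026181 had 4.84 and 9.96 FPKM. The BGL1B gene TBIU003712 had 2.46 and 2.43 FPKM, and the BoGH3B-like gene TBIU007238 had 2.50 and 1.97 FPKM. A bglL fragment (TBIU026185) had 43.6 and 41.5 FPKM on only 34.1 scaled reads, with an estimated effective length of 46 bases. Its FPKM is therefore not comparable with that of full-length members.

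The esterases with 20 to 100 scaled reads were faeB-1 TBIU013367 at 3.77 and 4.37 FPKM, faeA TBIU011137 at 2.83 and 6.07 FPKM, ESTA TBIU013192 at 3.53 and 2.19 FPKM and faeB TBIU003347 at 1.72 and 2.79 FPKM. Pectinesterases, which remove methyl groups from pectin, reached only this level of depth. The pmeA gene TBIU013685 had 5.59 and 2.99 FPKM, pmeA TBIU004269 had 2.67 and 0.82 FPKM, and pme1 TBIU014825 had 2.88 and 4.90 FPKM. Rhamnogalacturonan acetylesterase rha1 (TBIU050164) had 2.37 and 4.12 FPKM, and the xylan-debranching arabinofuranosidase axhA (TBIU007510) had 2.45 and 1.85 FPKM. Among the other glucan enzymes, exgB TBIU047215 had 0.89 and 3.63 FPKM, SIM1 TBIU046938 had 1.99 and 0.49 FPKM, and eglC TBIU002890 had 0.90 and 6.16 FPKM. The counting intervals of these genes are wide: that of eglC ran from 0.98 to 5.13. Of the 58 members under 20 scaled reads, 37 were listed at 0 in 1 library, and none exceeded 18.3 FPKM.

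Genes that act beside these enzymes were taken from lists of descriptions. Their counts beyond 2-fold stand beside 9.32% above and 8.68% below over all measured genes, and each list holds few measured genes. Cellulose-growth-specific proteins, monooxygenase relatives first described in the button mushroom Agaricus bisporus, were level: of 9 genes 2 were measured, cel1 TBIU059489 at 65.1 and 66.8 FPKM and cel1 TBIU013782 at 25.9 and 31.5 FPKM. Side-chain glycosidases had 12 measured genes of 28, 2 above and 2 below the control by 2-fold, with a median log2 ratio of 0.03. Both of the lower genes were beta-mannosidases, which finish mannan breakdown: man9 TBIU020246 had 35.0 and 8.55 FPKM, and man9 TBIU001241 had 11.7 and 3.54 FPKM. The more abundant man9 gene (TBIU019055) had 158 and 131 FPKM, lower by less than 2-fold. The man9 gene TBIU025659 had 15.0 and 21.8 FPKM, with a counting interval (-0.04 to 0.40) that covered 0. The higher genes were the fucosidase alfA (TBIU017064), at 26.5 and 59.1 FPKM, and the alpha-mannosidase ams1 (TBIU021500), at 14.6 and 31.4 FPKM. Counting intervals of alfA and ams1 reached inside 2-fold. The most abundant glycosidase, beta-galactosidase lacB (TBIU010423), had 688 and 371 FPKM (log2 ratio -0.89).

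Enzymes that use the released pentoses and galacturonate had 9 measured genes of 28, with 2 above and 1 below the control by 2-fold. Their median log2 ratio was 0.65, and 7 of the 9 ratios were above 0, beside 55.9% of all measured genes. D-arabinitol dehydrogenase ARD1 (TBIU023212) had 6.38 and 20.6 FPKM, and L-galactonate dehydratase lgd1 (TBIU011691), of the galacturonate pathway, had 29.9 and 68.2 FPKM. The counting intervals of ARD1 (0.76 to 1.54) and lgd1 (0.90 to 1.28) reached inside 2-fold. The most-read gene of the list, xylose reductase xyl1 (TBIU021178), had 55.2 and 87.4 FPKM. Xylulose kinase XYLB (TBIU022704), the last step of xylose entry, was lower, at 43.2 and 17.9 FPKM (log2 ratio -1.22), and the arabinitol dehydrogenase ARD (TBIU007984) had 77.6 and 62.6 FPKM. Enzymes of glucose entry and sugar oxidation had 13 measured genes of 22, 2 above and 0 below, with a median of 0.16. Gluconolactonase gnl (TBIU018977) had 2.72 and 7.38 FPKM, and the aldose epimerase GALM TBIU007210 had 5.93 and 13.9 FPKM. Counting intervals of gnl and GALM TBIU007210 reached inside 2-fold. The lowest ratios there were those of glucose oxidase GOX (TBIU008351), at 89.3 and 48.9 FPKM, and pyranose dehydrogenase pdh3 TBIU025466, at 25.9 and 16.3 FPKM. The most abundant by mean level, pyranose 2-oxidase p2ox (TBIU005797), had 116 and 155 FPKM, while pdh3 TBIU018634 led in the control, at 136 and 90.3 FPKM.

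Sugar transporters had 20 measured genes of 75, with 5 above and 3 below the control by 2-fold and a median log2 ratio of 0.17. Over all measured genes the shares were 9.32% above and 8.68% below. The hexose transporter ght4 (TBIU010208), the most abundant by mean level, had 269 and 583 FPKM (counting interval 0.99 to 1.10). The glucose transporter ght2 (TBIU014069) led in the control and was beyond 2-fold lower, at 349 and 171 FPKM (log2 ratio -1.03, counting interval -1.18 to -1.04). The leading transporter was thus ght2 in the control and ght4 after irradiation. The permease MAL31 (TBIU018874) had 37.4 and 113 FPKM, and the lactose permease homolog LAC12 TBIU008919 had 38.5 and 107 FPKM. Also lower were LAC12 TBIU021384, at 13.6 and 2.84 FPKM with a counting interval (-0.99 to 0.13) that covered 0, and STL1 TBIU017519, at 7.89 and 3.10 FPKM. The counting interval of STL1 TBIU017519 (-1.79 to -0.78) reached inside 2-fold. Regulators of carbon source use had 3 measured genes of 10, none 2-fold apart: the kinase SNF1 (TBIU015429), which lifts glucose repression in yeast, had 130 and 175 FPKM, the repression protein creC (TBIU012256) had 53.28 and 53.26 FPKM, and the SNF1 subunit gene KINB1 (TBIU035587) had 14.9 and 24.9 FPKM.

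**Figure D5:**
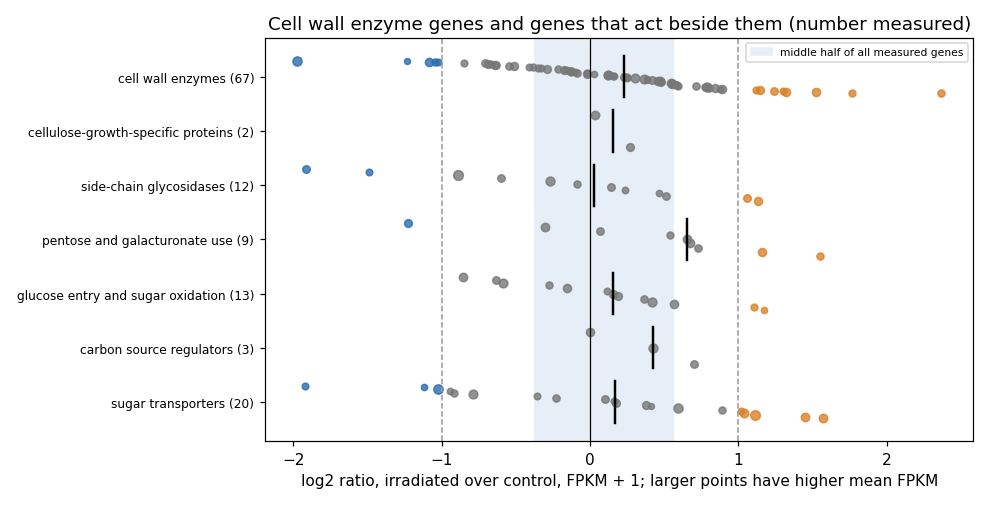
Log2 ratio of irradiated over control for measured cell wall enzyme genes and for measured genes of 6 lists that act beside them; black bars are list medians, larger points have a higher mean FPKM, dashed lines mark 2-fold and the shaded band is the interquartile range of all 8249 measured genes. Medians run from 0.03 (side-chain glycosidases) to 0.65 (pentose and galacturonate use), and 4 of the 7 rows hold genes beyond 2-fold on both sides.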

How the data were processed

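RNA of fruit bodies was sequenced by the authors as 1 control and 1 irradiated library. FPKM values per assembled transcript were deposited by the authors, per the file headers. Assembler, aligner and quantifier are not given in the sources available. The authors' deposited comparison of control with 200 Gy holds a pair of values per transcript (no unit or sample in the headers), their log2 fold change, a p-value and a q-value. The pair behaves like estimated reads divided by a library factor; this reading comes from the values. It served as a depth measure and as the authors' comparison, with the first value taken as control because the comparison names control first.

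Values of all transcripts of a gene were added. Log2 ratios used a pseudocount of 1 FPKM, genes with 100 or more scaled reads counted as measured, and 2-fold was the call. With 1 library per group no test was run. Exact Clopper-Pearson 95% intervals used rounded scaled values and cover counting error only. Effective lengths were estimated from scaled values over FPKM. Roles came from descriptions; the split of monooxygenase-type and of other glucan enzymes was made after the table was read. Every member with 20 or more scaled reads is named, and of each linked list the 2 highest, the 2 lowest and the most abundant measured gene; the remaining names (man9 TBIU019055 and TBIU025659, pdh3 TBIU018634, ght2, CDH-1, the 6 genes of the transcript plot) were chosen after their values were seen. The members and lists were chosen with earlier results of these data known. The scripts were tested on simulated data. Python 3.11.15, pandas 2.3.3, numpy 2.4.6, scipy 1.17.1 and matplotlib 3.10.9 were used.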

Additional observations from a re-analysis of the deposited data

How the results depend on the processing

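Counts beyond 2-fold moved most with the filter on reads. Without a filter 30 of 147 members were above and 28 below the control, mostly genes with few reads. The count below was 9 with a minimum of 20 scaled reads, 3 with a mean of 10 FPKM or more, 2 with a pseudocount of 5 and 3 for the most-read transcript alone. Apart from the minimum of 20 scaled reads, the shares over all genes were not computed at these settings. These counts therefore show how the calls moved, and not how the members compare with other genes. The pseudocount of 5 brought bglX, axeA, plyC, xynC and the arabinofuranosidase TBIU020779 within 2-fold, and the most-read transcript alone did so for bglX, manC and xynC. A pseudocount of 0.1, centring, the authors' scaled values and matching transcripts alone kept all 13 genes beyond 2-fold. The pseudocount of 0.1 also added cel2 TBIU025579. For xynC the matching transcripts include one described as cellobiohydrolase cbhB (log2 ratio -1.61), while its xylanase transcript had -0.42. The list median was 0.048 on the authors' scaled values and stayed between 0.12 and 0.25 over the others; 2 alternatives (members with 50% or more matching reads, and assembly clusters summed) were chosen after seeing the data.

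Group sums changed as follows; the cause was not tested. On the authors' scaled values the log2 ratio was -0.20 for monooxygenase-type genes, 0.33 for beta-glucosidases, -0.16 for cellobiohydrolases, -1.03 for mannanases and -0.046 for all members. With matching transcripts alone it was 0.032 for monooxygenase-type genes. Without the most abundant member it was 0.16 for beta-glucosidases, 0.92 for endoglucanases, -0.23 for esterases, 0.90 for mannanases, 0.87 for other glucan and mannan enzymes, 0.29 for pectin enzymes and 0.30 for all members. No paired analysis was possible because each group had 1 library, and for the same reason no library could be left out. The median half-width of the counting intervals was 0.33 over measured members, and gaps under that were mostly not detectable at this depth.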
